A study of Mus musculus with 105 samples.

Results

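Thymus and lymph node (LN) are compared here head to head, as 4 samples whose source name is Thymus against 4 whose source name is LN, chosen by that label alone: 8 of the 105 samples of the series, and 8 of its 48 libraries of healthy tissue. The series sequenced poly(A) RNA from mouse tumour lines, melanocytes and 12 healthy tissues to read genes and transposable elements. Both groups came from wild-type (WT) female mice of the strain C57BL/6, with no treatment named. Pieces of whole organ went into RNAlater and were homogenised, so each library mixes lymphocytes, stroma, vessels and any attached tissue, and fewer cells of a type cannot be told apart from less RNA per cell. Age, the number of mice, the site of the lymph nodes and whether replicates are separate mice are not given, so the p-values measure the spread between these samples, which may be technical. Levels are counts per 1e6 counts of the library total (CPM). A fold is thymus over LN on the log2 scale from edgeR with its standard error (SE), and a gene is called at an adjusted p under 0.05. Counts of list members are over those that passed the low-count filter and were tested. Each such count is to be set against all tested genes, of which 27.5% were called higher in thymus and 26.9% in LN. Where values of single libraries are listed, they stand in the order of replicates 1 to 4, and where 2 values are set against each other they are the mean ± SD of the 4 thymus and then of the 4 LN libraries.

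The thymus is where T cells are made. Immature thymocytes rearrange their receptor genes with the RAG recombinase, divide after a first receptor chain is built, and are then selected on peptides shown by cortical and medullary epithelium. Lymph nodes hold the finished product: naive T and B cells that enter through high endothelial venules and are kept in place by reticular fibroblasts and their chemokines.

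Library totals were 66.7 to 147.3 in thymus and 68.9 to 85.7 in LN, in units of 1e6 counts, so that 1 CPM is at least 66.7 counts. In the sample titles, the library codes of each tissue begin with D812 for 3 libraries and with D804 for 1, replicate 4. This part of the code was taken as the sequencing run, which the titles do not state. Between 28904 and 31319 genes had a count in a thymus library and between 26444 and 27213 in an LN library. For each library, the deviation of log2 CPM from the mean of the 8 libraries was fitted against exon length over the more abundant protein-coding genes. This deviation fell with length in thymus replicates 1 and 3 (slopes -0.144 and -0.0949 per log2 unit of length). It rose with length in thymus replicates 2 and 4 (0.108 and 0.104) and in all LN libraries (0.0199 to 0.0488). The slopes are thus relative to the libraries compared. Within a tissue the lowest Spearman correlation between libraries was 0.972 in thymus and 0.968 in LN, across genes, while the highest between tissues was 0.916.

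More than 1 gene in every 2 tested differed between the organs. Of 20918 tested genes edgeR called 11385 (54.4%), of which 5752 (27.5%) were higher in thymus and 5633 (26.9%) higher in LN. The scaling centres the folds, at a median log2 fold of 0.0037, so these 2 counts say little on their own about balance. Large differences lay more often on the side of thymus. Among called genes with a fitted fold of at least 4, 2123 were higher in thymus and 1470 in LN, and at 8-fold 1318 and 570, where the fitted fold of a gene near 0 in 1 organ depends on the prior count. The split also moved with the fit, to 7293 and 5924 with DESeq2, 7543 and 6153 with all 48 tissue libraries and 6645 and 5312 without thymus replicate 2. With a fold of at least 2 as part of the test, 2507 and 2281 genes were called. Without thymus replicates 1 and 3, the 2 libraries of negative length slope, 5148 genes were higher in thymus and 5248 in LN. Among the 12 tissues, thymus had the highest mean of all for 2678 of the 5752 genes higher in thymus (46.6%), and LN for 1175 of the 5633 higher in LN (20.9%). Spleen had the highest mean for another 889 of the latter (15.8%). Over all tested genes these shares were 20.7% for thymus, 8.71% for LN and 9.11% for spleen. A gene called higher in 1 of the 2 organs cannot be highest in the other. Choosing genes by that difference thus raises the higher organ's share by itself, and the rise is no separate result.

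**Figure D1:**
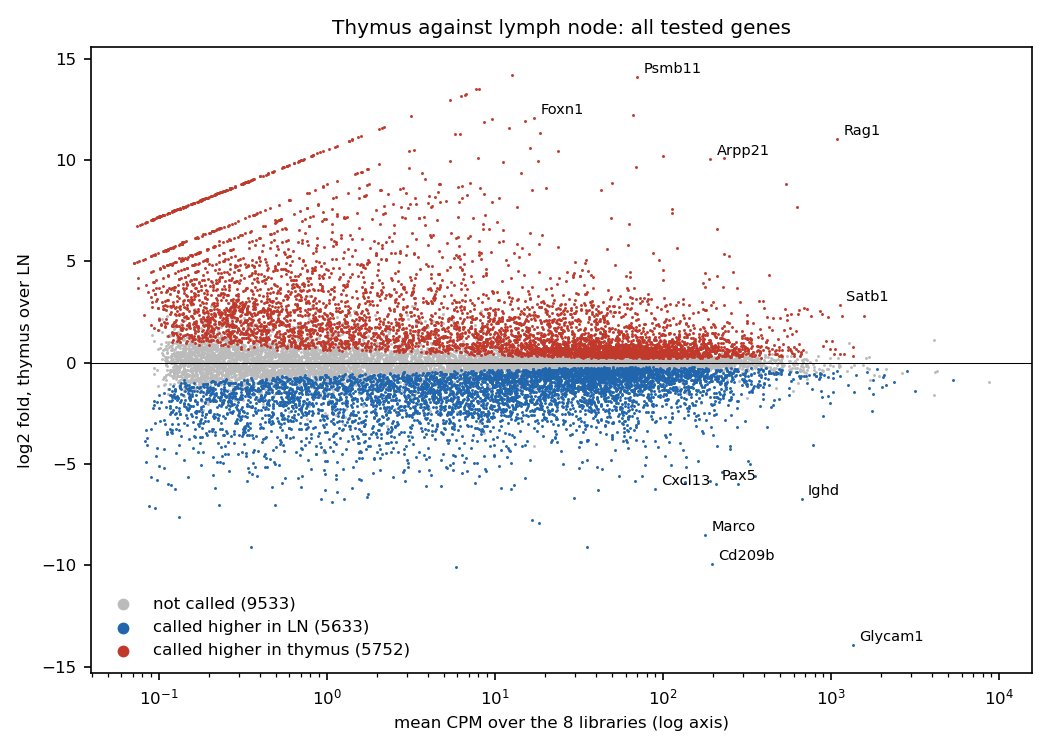
Log2 fold of thymus over LN (vertical axis) against the mean CPM over the 8 libraries (horizontal log axis) for the 20918 tested genes, one point each, coloured by the edgeR call. Thymocyte and thymic epithelial genes such as Rag1 and Psmb11 lie at the top, and Glycam1 and the macrophage genes Cd209b and Marco at the bottom.

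Rag1 and Rag2 are neighbours on chromosome 2 (Rag1 at 101638282 to 101649501, minus strand and Rag2 at 101624718 to 101632529, plus strand, build mm10). The recombinase genes were abundant in thymus and near 0 in LN. Rag1, which with Rag2 cuts the receptor loci, stood at 1416, 2452, 1778 and 3081 CPM in thymus and 0.763, 0.116, 0.860 and 3.72 in LN. The lowest thymus library thus held 380.3 times the Rag1 level of the highest LN library. Rag2 stood at 177, 166, 212 and 247 CPM in thymus and 0.0587, 0.0145, 0.172 and 0.467 in LN. Dntt, which adds untemplated bases at the joints, had 1249 ± 90.1 against 5.88 ± 3.74 CPM. Rag1, Rag2 and Dntt rose in thymus by 11.02 (SE 0.75), 10.20 (SE 0.53) and 7.68 (SE 0.48) on the log2 scale, with adjusted p of 1.55e-05, 4.24e-06 and 8.75e-06. The general end-joining machinery that seals the breaks was mixed. Lig4 (97.5 ± 5.43 against 10.5 ± 0.471 CPM) and the Ku70 gene Xrcc6 (355 ± 40.5 against 43.1 ± 2.57 CPM) were higher in thymus. Dclre1c, which opens the hairpin ends, had 53.05 ± 17.7 against 40.0 ± 3.88 CPM and was not called (adjusted p = 0.203), nor was Prkdc (44.6 ± 7.99 against 46.2 ± 2.94 CPM). Without thymus replicate 1, Dclre1c was called higher in thymus (adjusted p = 0.0397). It was also called higher in thymus without the 2 thymus libraries of negative length slope (0.00326) and with that slope as a covariate (0.00181). The gap-filling polymerase genes Poll (8.25 ± 1.11 against 20.9 ± 1.88 CPM) and Polm (31.4 ± 4.19 against 60.7 ± 8.997 CPM) were lower in thymus. In all, 7 of 13 genes of the rearrangement list were higher in thymus and 2 in LN, with a median log2 fold of 0.49. Of all tested genes 27.5% and 26.9% were so called.

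Ptcra encodes the invariant pre-T alpha chain that pairs with the first rearranged beta chain. It stood at 51.7, 32.7, 30.8 and 29.9 CPM in thymus and 0.0822, 0, 0.0123 and 0.0350 in LN. The promoters of Rag1 and Ptcra are shown beside that of Cd79a, a B cell gene higher in LN, because these genes lie at opposite ends of the comparison. RefSeq promoters (build GRCm38.p6, 250 bases before to 50 after the start site) were printed for these 3. Capitals mark the E-box CAGCTG, the octamer ATGCAAAT and the ETS core GGAAGT on either strand.
Rag1, chr2:101649483-101649782, minus strand: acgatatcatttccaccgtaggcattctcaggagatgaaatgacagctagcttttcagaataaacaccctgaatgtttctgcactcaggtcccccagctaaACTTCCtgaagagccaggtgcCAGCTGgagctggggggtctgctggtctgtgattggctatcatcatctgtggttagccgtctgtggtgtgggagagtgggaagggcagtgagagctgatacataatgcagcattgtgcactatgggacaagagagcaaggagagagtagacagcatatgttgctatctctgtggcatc
Ptcra, chr17:46763663-46763962, minus strand: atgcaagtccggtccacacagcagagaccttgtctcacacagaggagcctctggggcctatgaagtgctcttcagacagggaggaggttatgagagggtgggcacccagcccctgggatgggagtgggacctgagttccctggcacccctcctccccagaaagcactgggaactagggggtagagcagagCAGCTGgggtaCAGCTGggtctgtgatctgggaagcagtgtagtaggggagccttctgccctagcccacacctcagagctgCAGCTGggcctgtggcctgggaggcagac
Cd79a, chr7:24897247-24897546, plus strand: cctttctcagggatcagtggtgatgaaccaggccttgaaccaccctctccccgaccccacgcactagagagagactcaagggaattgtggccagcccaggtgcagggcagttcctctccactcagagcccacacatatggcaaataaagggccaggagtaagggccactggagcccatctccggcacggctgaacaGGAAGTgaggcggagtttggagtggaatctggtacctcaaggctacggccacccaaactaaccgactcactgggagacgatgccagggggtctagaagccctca
The Ptcra promoter held 3 copies of CAGCTG, a sequence that E proteins such as those of Tcf3 and Tcf12 are known to bind. The Rag1 promoter held 1 copy of CAGCTG and 1 of the ETS core, on the minus strand of the printed sequence, and the Cd79a promoter held 1 ETS core. No motif overlapped another. Of all 32851 promoters of this length in the table, 16.3% held CAGCTG, 23.8% the ETS core and 1.74% the octamer, so the first 2 are common in promoters at large. CAGCTG was in 27.6% of 29 promoters of 14 immature thymocyte genes, 17.4% of 23 promoters of 18 B cell genes, 10.5% of 38 of cell cycle genes and 16.7% of 18 of cortical epithelium genes. The ETS core was in 27.6%, 47.8%, 21.1% and 22.2% of the same promoters. These matches describe the letters of the windows and were not tied to binding.

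Immature thymocyte genes were higher in thymus almost throughout. Of 24 genes on that list, 21 were called higher in thymus and 1 in LN, with a median log2 fold of 2.41. The co-receptor genes, which double-positive thymocytes carry together, stood at 1499 ± 70.3 against 273 ± 54.01 CPM for Cd8a, 978 ± 95.1 against 175 ± 30.8 CPM for Cd8b1 and 940.3 ± 67.1 against 303.8 ± 56.7 CPM for Cd4. Their log2 folds were 2.39, 2.42 and 1.57. Arpp21 is a gene known mainly from brain. It stood at 379, 425, 338.6 and 387 CPM in thymus and 0.505, 0.276, 0.160 and 0.420 in LN and rose in thymus by 10.06 (SE 0.33, adjusted p = 4.54e-07). The chromatin organiser Satb1 (1988 ± 230.3 against 264 ± 37.9 CPM), the selection adaptor Themis (409 ± 86.0 against 53.2 ± 6.62 CPM), the gut-homing receptor Ccr9 (515 ± 164 against 37.2 ± 11.9 CPM) and Endou (414 ± 24.6 against 4.14 ± 0.530 CPM) were also higher, and no library of these 5 genes crossed into the range of the other tissue. Cd24a, a surface marker lost on maturation, differed little (232 ± 15.7 against 188 ± 12.3 CPM, log2 fold 0.24, adjusted p = 0.0427). Its call was lost without LN replicate 1 (0.125), 3 (0.0706) or 4 (0.119), without thymus replicate 1 (0.088) or 4 (0.104), and with a replicate block that pairs the libraries by number (0.0638). Rora, a nuclear receptor gene, was the member called higher in LN (12.7 ± 0.360 against 17.1 ± 3.66 CPM, adjusted p = 0.0328), a call lost without LN replicate 2 (0.139) or 3 (0.0636) or thymus replicate 1 (0.051), 2 (0.118) or 3 (0.147).

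**Figure D2:**
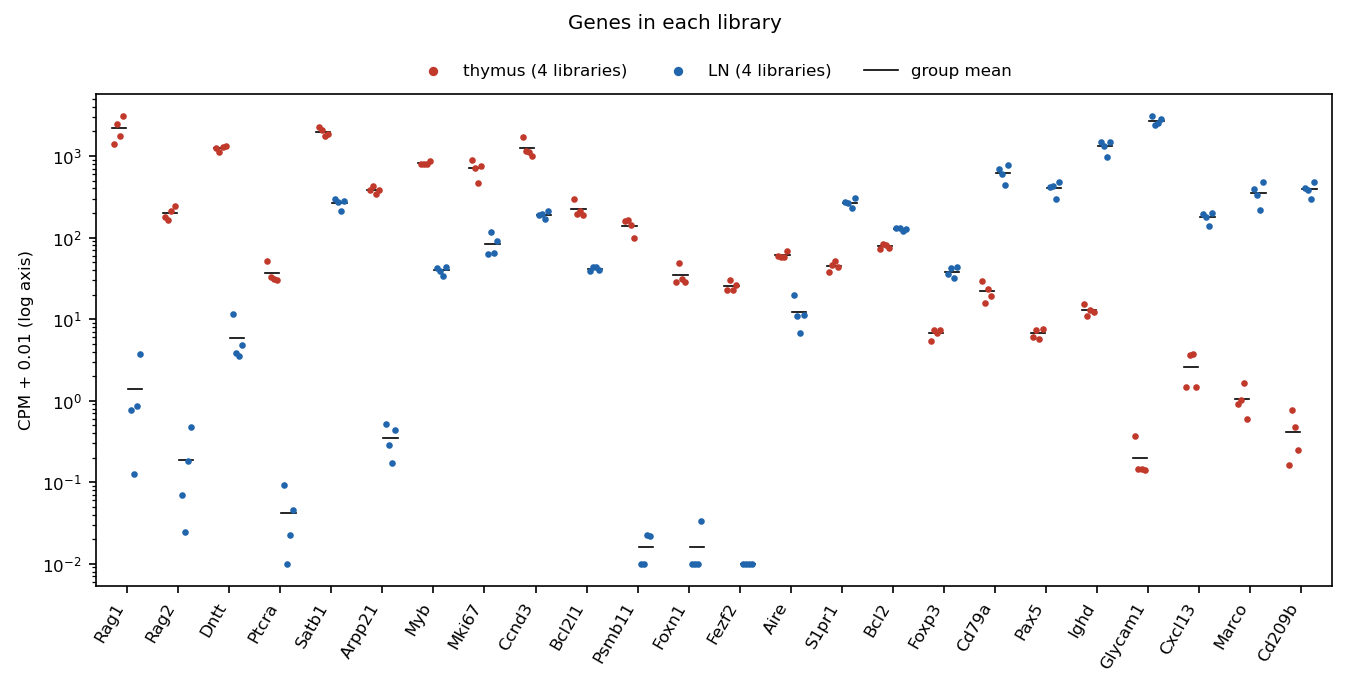
CPM of 24 genes in the 8 libraries (log axis, 0.01 added so that zeros can be drawn), thymus in red and LN in blue, one point per library and a bar at each group's mean. Thymocyte, epithelial and cell cycle genes sit higher in thymus, and B cell, stromal and macrophage genes higher in LN. Only genes without overlap of libraries were drawn, so its absence here is no result. Of all 21865 protein-coding genes, 5948 lay wholly higher in thymus and 4063 wholly higher in LN.

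Most parts of the T cell receptor and its proximal signalling were higher in thymus too, by smaller folds. The list had 23 of 28 genes called higher in thymus, 3 in LN and a median of 1.30. The CD3 chains were raised by 1.41 (Cd3d), 1.44 (Cd3e), 1.64 (Cd3g) and 1.78 (Cd247, the zeta chain). Lck, the kinase that starts the signal, had 1604 ± 252.7 against 326.6 ± 43.2 CPM and Lat, the membrane scaffold, 1085 ± 391 against 199 ± 25.3 CPM. Zap70, the next kinase, differed less (201 ± 2.14 against 106 ± 14.1 CPM, log2 fold 0.86). The adhesion receptor Cd2 was not called (175.6 ± 31.8 against 163 ± 21.1 CPM, adjusted p = 0.8286). Among the 3 genes that went the other way, Bcl10 (52.8 ± 5.29 against 67.5 ± 6.64 CPM) and Malt1 (49.9 ± 12.4 against 189.6 ± 20.5 CPM) pass antigen receptor signals to NF-kappaB, in B cells as in T cells. Malt1 fell by 2.01 in thymus (SE 0.14, adjusted p = 1.15e-05), while the smaller change of Bcl10 (log2 fold -0.42) was not called without LN replicate 2 (adjusted p = 0.0531).

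The receptor segments showed beta and alpha chains apart. Summed over 22 variable genes, beta-chain V transcripts came to 357, 505, 461 and 559 CPM in thymus and 142, 148, 111 and 133 in LN. All 22 beta V genes were called higher in thymus. Alpha-chain V genes summed to 40.8, 82.3, 66.7 and 84.3 CPM in thymus and 47.97, 60.8, 42.4 and 54.3 in LN, so the libraries of the tissues overlapped, and of 108 alpha V genes (66 tested) 11 were called higher in thymus and 0 in LN. Alpha-chain joining segments, in contrast, summed to 59.97, 18.5, 16.96 and 28.1 CPM in thymus and 7.82, 5.50, 6.14 and 4.25 in LN, with 27 of 51 genes (31 tested) higher in thymus. The constant gene Trac had 371 ± 54.7 against 224 ± 28.9 CPM (log2 fold 0.66), against 1213 ± 377 against 180.3 ± 28.8 CPM for Trbc1 (2.69) and 1475 ± 523 against 241 ± 25.6 CPM for Trbc2 (2.54). Constant genes of the gamma chain came to 199, 171, 207 and 150.4 CPM in thymus and 25.2, 28.0, 18.7 and 27.7 in LN and those of the delta chain, read as Trdc, to 147, 162, 139.7 and 132 CPM in thymus and 19.1, 19.96, 13.4 and 23.5 in LN. Both gamma and delta constants were thus higher in every thymus library. Segment genes share sequence, and the counts do not say how reads that fit several of them were handled, so single members are uncertain. Immunoglobulin segments ran the other way. Heavy-chain V genes summed to 40.9, 125, 90.3 and 131 CPM in thymus and 404, 343.4, 472 and 475 in LN, with 70 of 113 genes (92 tested) higher in LN and 0 in thymus, and kappa V genes to 86.0, 131, 118 and 143 CPM in thymus and 647, 564, 765 and 747 in LN, with 82 of 100 (89 tested) higher in LN and 0 in thymus.

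**Figure D3:**
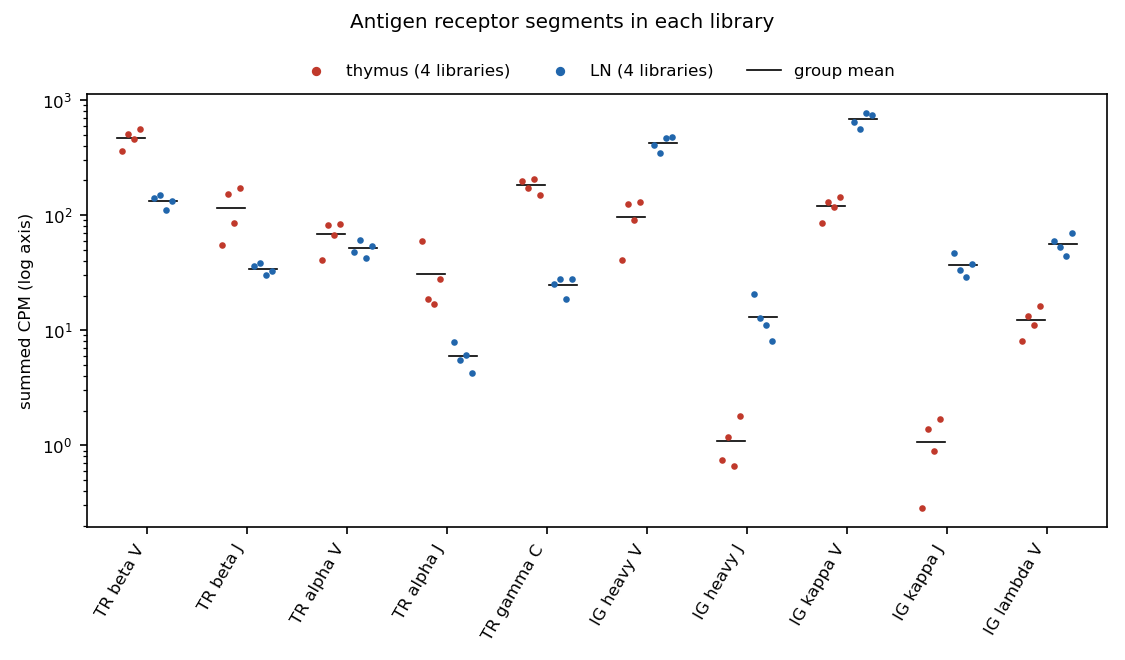
Summed CPM of antigen receptor segments in each library (log axis), one point per library, thymus in red and LN in blue. T cell receptor beta V, beta J and alpha J segments and gamma constants are higher in every thymus library, alpha V segments overlap, and immunoglobulin V and J segments are higher in every LN library.

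Genes of mature, recirculating T cells were higher in LN. Of 21 on that list, 19 were called higher in LN and 2 in thymus, with a median log2 fold of -1.57. S1pr1, the receptor by which cells leave thymus and node toward lymph and blood, stood at 37.2, 46.5, 51.6 and 43.7 CPM in thymus and 272, 268, 233 and 302.01 in LN. Its activator Klf2 had 81.4 ± 24.05 against 319.2 ± 59.1 CPM, the chemokine receptor Ccr7 93.9 ± 8.50 against 232 ± 35.7 CPM and the survival receptor Il7r 62.2 ± 14.9 against 248 ± 15.5 CPM. S1pr1 fell by 2.65 in thymus (SE 0.12, adjusted p = 1.27e-06). Of 7 Gimap genes on the list, which support survival of peripheral lymphocytes, 6 were higher in LN, and Gimap9 was higher in thymus (123 ± 21.3 against 73.6 ± 10.3 CPM). Ifngr1 was the other member higher in thymus (350.3 ± 32.3 against 209.7 ± 7.35 CPM). B cells carry S1pr1, Klf2 and Ccr7 as well, and B cell genes were higher in LN (median log2 fold -4.01); their part in these values was not tested.

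Effector and regulatory T cell genes were split. Of 24 on the list, 14 were higher in LN and 6 in thymus (median -0.79), against 26.9% and 27.5% of all tested genes. Foxp3, which defines regulatory T cells, was 6.67 ± 0.915 against 38.2 ± 5.59 CPM and fell by 2.59 in thymus (adjusted p = 2.31e-06). Its usual companions did not move together: Ctla4 was lower in thymus (10.9 ± 1.30 against 22.5 ± 2.95 CPM), while Il2ra, which early thymocytes also carry, was higher (87.4 ± 14.4 against 44.5 ± 4.47 CPM), as was Ikzf2 (84.8 ± 19.1 against 27.7 ± 2.97 CPM). The chemokine gene Ccl5 (42.0 ± 7.80 against 241 ± 40.1 CPM) and the cytotoxic gene Prf1 (6.86 ± 0.351 against 23.9 ± 2.68 CPM) were lower in thymus, but granzyme A went the other way. Gzma stood at 69.2, 50.2, 61.8 and 55.7 CPM in thymus and 12.3, 9.55, 7.80 and 12.2 in LN, with every thymus library above every LN library. The inhibitory receptor gene Pdcd1 (19.7 ± 3.33 against 8.24 ± 1.41 CPM) and Ccr4 (30.7 ± 8.64 against 12.2 ± 3.30 CPM) were also higher in thymus. 

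B cell genes were higher in LN with 1 exception. Of 30 tested, 29 were higher in LN and the median log2 fold was -4.01. Pax5, which fixes B cell identity, stood at 6.05, 7.28, 5.74 and 7.56 CPM in thymus and 417, 434, 300.6 and 474 in LN and fell by 5.99 (SE 0.16, adjusted p = 1.96e-07). The receptor chains Cd79a (21.9 ± 5.82 against 623 ± 145 CPM) and Cd79b (28.5 ± 5.79 against 473 ± 97.5 CPM), Ms4a1, which encodes CD20 (11.0 ± 2.80 against 438 ± 82.6 CPM), and the complement receptor Cr2 (4.54 ± 0.717 against 267 ± 50.9 CPM) followed. The immunoglobulin constants did not fall evenly. Ighd, carried by naive B cells, had 12.9 ± 1.75 against 1327 ± 243 CPM, a log2 fold of -6.75. Ighm (925 ± 105 against 2629 ± 371 CPM, -1.57) and Igkc (407 ± 134 against 1568 ± 210.2 CPM, -2.01) differed far less, so that thymus held 71.97 Ighm counts per Ighd count and LN 1.98. The member higher in thymus was Ly6d (328.3 ± 92.6 against 199.8 ± 19.02 CPM, adjusted p = 0.0288), which is not restricted to B cells. Its call was lost without LN replicate 1 (0.0618), 2 (0.057) or 3 (0.072) or thymus replicate 1 (0.0546).

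Plasma cell and germinal centre genes were mixed. Of 19, 10 were higher in LN and 5 in thymus (median -0.88), against 26.9% and 27.5% of all tested genes. Mzb1, a chaperone of antibody secretion, had 7.72 ± 1.89 against 42.8 ± 9.01 CPM, and Irf4, a factor of plasma cells and activated lymphocytes, 23.0 ± 2.13 against 107 ± 8.62 CPM. Igha, the IgA heavy chain, was called higher in thymus, at 256, 211, 255 and 159 CPM in thymus and 131, 79.6, 175 and 45.0 in LN. The LN libraries spread widely and their highest value lay inside the thymus range. The log2 fold was 1.06 (adjusted p = 0.0123), and the call was lost without LN replicate 4 (0.0512).

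Cortical epithelium, the stroma that selects double-positive thymocytes, gave some of the largest differences. Psmb11 (chromosome 14, 54621433 to 54629556, plus strand) encodes the beta5t subunit of the thymoproteasome, known from these cells. It stood at 159, 164, 141 and 97.4 CPM in thymus and 0, 0, 0.0123 and 0.0117 in LN, and a total of 2 LN counts gives a 22233-fold ratio (95% counting interval 6154 to 183588). Foxn1, the master regulator of thymic epithelium, had 28.7, 48.98, 30.7 and 28.8 CPM in thymus and 0, 0, 0 and 0.0233 in LN, a 5810.4-fold ratio against 2 LN counts (1608 to 47983). Prss16, the thymus-specific serine protease, reached 1086 ± 230.4 against 2.28 ± 0.734 CPM. The pharyngeal pouch factors Pax1 (133 ± 33.2 against 0.0258 ± 0.0132 CPM) and Pax9 (16.2 ± 2.27 against 0 ± 0 CPM) were higher in thymus, and Pax9 was at least 1792-fold higher against a floor of 3 counts over the LN group, which had 0. The thymocyte attractant Ccl25 (452 ± 112 against 10.5 ± 1.20 CPM), the cathepsin Ctsl (1275 ± 249.8 against 243 ± 24.8 CPM) and Tbata (463 ± 86.9 against 0.396 ± 0.103 CPM) were raised by 5.36, 2.31 and 10.09. In all, 16 of 22 genes on this list were higher in thymus and 3 in LN (median 3.29). The 3 higher in LN were Kitl (18.1 ± 3.72 against 44.8 ± 5.48 CPM), Cxcl12 (271 ± 53.6 against 527 ± 58.8 CPM) and Cd83 (91.8 ± 7.20 against 134 ± 23.8 CPM), which other stroma and dendritic cells make as well. Il7, the cytokine of early thymocytes, was higher in thymus by 0.62 (28.8 ± 3.69 against 17.8 ± 1.71 CPM).

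Psmb11 replaces 2 other subunits at the same place in the proteasome, the constitutive Psmb5 and the interferon-inducible Psmb8. Per length, as transcripts per 1e6 transcripts (TPM), Psmb11 reached 92.7 ± 22.002 in thymus, Psmb5 165 ± 18.04 and Psmb8 334.8 ± 26.5. In LN the TPM levels were 0.00406 ± 0.00468, 108 ± 6.42 and 272 ± 38.3. Psmb5, Psmb6 and Psmb7, the constitutive catalytic set, were each higher in thymus (log2 folds 0.60, 0.64 and 0.57). None of the immunoproteasome set Psmb8, Psmb9 and Psmb10 was called (log2 folds 0.30, -0.27 and 0.32, adjusted p = 0.196, 0.165 and 0.218). Without thymus replicate 2, Psmb8 and Psmb10 were called higher in thymus (0.044 and 0.0439), and Psmb9 was called higher in LN without the 2 thymus libraries of negative length slope (0.0272) or with that slope as a covariate (0.0297). The class I genes H2-K1 (1388 ± 269 against 2877 ± 330.03 CPM) and H2-D1 (1033 ± 168 against 2328 ± 216 CPM), B2m (1308 ± 142 against 2258 ± 75.7 CPM) and their activator Nlrc5 (106 ± 18.7 against 259.7 ± 18.7 CPM) were lower in thymus. The peptide transporter gene Tap1 was lower too (236 ± 8.67 against 343.6 ± 52.5 CPM). The whole antigen-processing list had 5 of 18 genes higher in thymus and 7 in LN (median -0.32), against 27.5% and 26.9% of all tested genes.

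Medullary epithelium displays genes of other organs to purge self-reactive cells, through Aire and Fezf2. Fezf2 stood at 22.8, 29.9, 22.5 and 26.3 CPM in thymus and at 0 in all 4 LN libraries, at least 2821-fold higher in thymus against a floor of 3 counts over the LN group. Aire was also present in LN. It had 59.4, 58.3, 58.4 and 67.4 CPM in thymus and 19.6, 10.8, 6.82 and 11.1 in LN and a log2 fold of 2.27 (SE 0.29, adjusted p = 0.000266). Krt5, a keratin of this epithelium, was higher in thymus and uneven in LN, at 217, 239, 245 and 249 CPM in thymus and 1.09, 4.14, 16.8 and 0.397 in LN. Genes of the tuft-like cells of the medulla did not all go the same way. Pou2f3 (3.98 ± 0.424 against 0.0659 ± 0.0512 CPM), Avil (11.9 ± 1.82 against 1.36 ± 0.184 CPM) and Trpm5 (8.01 ± 2.08 against 0.372 ± 0.0873 CPM) were higher in thymus. Dclk1, listed with them, was higher in LN (9.97 ± 2.06 against 72.2 ± 7.62 CPM). The list had 11 of 17 genes higher in thymus and 3 in LN (median 3.05). The co-stimulatory gene Cd80 (6.59 ± 0.866 against 7.06 ± 0.303 CPM) was not called.

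Genes that are textbook examples of such display were found in thymus at low levels. Of 13 of them in the table, 10 were called higher in thymus and 1 in LN, with 12 tested. Their median log2 fold was 5.32 with the genes at 0 in LN set to their lower bound. Those near 0 in LN entered the test only through their level in thymus, so the share called is no measure of this list. Insulin 2 (Ins2) stood at 0.410, 0.156, 0.285 and 0.337 CPM in thymus and at 0 in all 4 LN libraries, with 0 counts over the LN group and thus at least 29.7-fold higher in thymus. The casein gene Csn2 had 17.7, 14.5, 18.6 and 16.9 CPM in thymus and 0.176, 0.102, 0.0983 and 0.175 in LN. Somatostatin (Sst, 0.891 ± 0.183 against 0 ± 0 CPM) and the hormone-granule gene Resp18 (4.09 ± 1.12 against 0 ± 0 CPM) also had 0 counts in LN, and the liver genes Crp (2.14 ± 0.385 against 0.0365 ± 0.0297 CPM) and Apoa4 (12.3 ± 2.40 against 0.472 ± 0.115 CPM) were higher in thymus. Gad1 went the other way (0.797 ± 0.110 against 3.69 ± 0.396 CPM).

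To look beyond examples, protein-coding genes were taken as restricted to 1 of the 10 other tissues where the mean there was at least 5 CPM and at least 10 times that of each of the other 9. Thymus and LN played no part in that choice, which was made after other results were seen. For every 100 protein-coding genes of the table, tested or not, 21.5 were called higher in thymus and 20.5 in LN. Genes near 0 in 1 organ entered the test only through their level in the other. The shares called below are thus set in part by the low-count filter and are no measure of display. Of 93 genes restricted to colon, 49 (52.7%) were called higher in thymus and 10 in LN. Of 250 skin genes, 125 (50%) were higher in thymus and 23 in LN, and of 65 stomach genes 29 (44.6%) and 4. Skin genes include keratins that thymic epithelium makes as its own. Ovary gave 29 of 91 (31.9%) and 5, heart 26 of 84 (30.95%) and 2. The most abundant of the heart genes higher in thymus varied widely there, Tnnt2 with 22.1 ± 20.4 and Actc1 with 18.5 ± 23.0 CPM. The part of attached heart tissue in the heart count was not tested. Brain (165 of 628, 26.3%), lung (11 of 39, 28.2%), kidney (24 of 126, 19.05%) and liver (40 of 226, 17.7%) lay nearer the share of all protein-coding genes, with 132, 9, 14 and 27 higher in LN. Spleen genes leaned to LN, with 83 of 132 (62.9%) higher there and 23 in thymus. Outside spleen, 1146 of 1602 restricted genes averaged at least 0.1 CPM in thymus and 792 in LN. Of all 21865 protein-coding genes, 16534 reached that level in thymus and 15436 in LN. Most restricted genes were low, and 206 and 172 averaged at least 5 CPM, against 11259 and 11422 of all protein-coding genes. Examples are the class I-like gene H2-Q2 from colon (125 ± 10.8 against 1.04 ± 0.499 CPM), the stomach factor Six2 (16.8 ± 2.07 against 0.164 ± 0.0195 CPM), the lung reductase Cbr2 (184 ± 42.1 against 24.3 ± 5.28 CPM) and the liver P450 Cyp2a5 (24.4 ± 4.73 against 0.00726 ± 0.0145 CPM). In the tissue of restriction H2-Q2 averaged 142 CPM, Six2 15.4, Cbr2 2578 and Cyp2a5 548. Six2 was thus higher in thymus than in stomach, and H2-Q2 nearly as high as in colon. As thymus played no part in the choice, a restricted gene can be as high in thymus as in that tissue. Among restricted genes higher in LN were the liver complement gene C3 (598 ± 212 against 2938 ± 341.1 CPM) and the lysozyme gene Lyz1 (14.2 ± 3.17 against 125 ± 28.2 CPM).

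**Figure D4:**
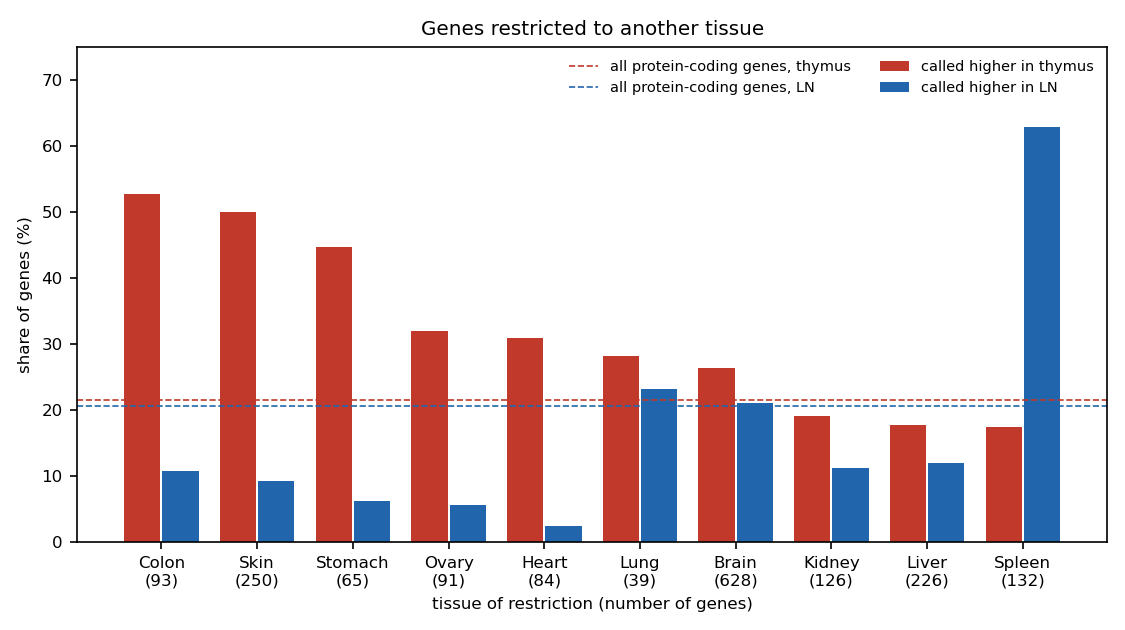
Share of genes called higher in thymus (red) and in LN (blue) among protein-coding genes restricted to each of 10 other tissues, in percent of all genes so restricted, with dashed lines at the shares over all protein-coding genes (21.5% and 20.5%). Colon, skin and stomach genes are called higher in thymus most often, and spleen genes in LN.

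Genes of the vessels of the node were higher in LN, some from near 0 in thymus. GlyCAM-1 (Glycam1), a mucin-like glycoprotein made by high endothelial venules (chromosome 15, 103562759 to 103565081, minus strand), stood at 0.356, 0.136, 0.135 and 0.130 CPM in thymus and 3085, 2367, 2505 and 2811 in LN. It fell by 13.93 in thymus (SE 0.43, adjusted p = 3.56e-07). The enzymes that build the sulfated, fucosylated sugars of these venules, Chst4 (0.864 ± 0.598 against 18.9 ± 2.26 CPM) and Fut7 (1.36 ± 0.142 against 18.05 ± 4.003 CPM), went with it. Lymphatic endothelium was read by Lyve1 (2.57 ± 2.20 against 107 ± 13.9 CPM), Prox1 (0.811 ± 0.301 against 24.2 ± 3.32 CPM), Flt4 (2.42 ± 0.489 against 47.3 ± 8.58 CPM) and Mmrn1 (0.153 ± 0.0495 against 36.3 ± 1.05 CPM). Of 22 endothelial genes, 20 were higher in LN and 0 in thymus, with a median log2 fold of -3.07. General endothelial genes such as Pecam1 (156 ± 11.97 against 432 ± 34.6 CPM) and Cdh5 (21.9 ± 7.69 against 158 ± 23.2 CPM) were among them, with smaller folds for Pecam1 (-1.54) than for Cdh5 (-2.94). The inflammatory selectin Sele was near 0 in both (0.209 ± 0.167 against 0.299 ± 0.147 CPM) and not called.

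Reticular fibroblasts organise the node with chemokines, and their genes followed. The B cell attractant Cxcl13 stood at 1.46, 3.59, 3.67 and 1.45 CPM in thymus and 195, 176.1, 140.1 and 199.5 in LN, and the T zone chemokine Ccl19 at 5.48, 3.03, 4.91 and 3.68 CPM in thymus and 62.1, 67.4, 49.7 and 64.7 in LN. Ccl21a, which thymic medulla also makes, differed less (345.05 ± 83.3 against 786 ± 133 CPM, log2 fold -1.25). Leptin receptor (Lepr, 2.34 ± 0.633 against 78.4 ± 13.6 CPM), the milk-fat globule gene Mfge8 of follicular dendritic cells (84.8 ± 5.16 against 748 ± 115 CPM), clusterin (Clu, 93.0 ± 17.8 against 1472 ± 175 CPM) and autotaxin (Enpp2, 76.6 ± 11.1 against 542 ± 36.8 CPM) were lower in thymus. The list gave 19 of 23 genes higher in LN and 2 in thymus (median -1.96). The 2 higher in thymus were Thy1, which thymocytes carry in abundance (1967 ± 229.6 against 379.6 ± 49.6 CPM), and the adventitial fibroblast gene Pi16 (29.4 ± 14.7 against 4.63 ± 1.60 CPM). Podoplanin (Pdpn, 9.45 ± 1.07 against 9.88 ± 1.11 CPM) was not called. The lymphotoxin pathway that instructs this stroma had 13 of 16 genes higher in LN and 0 in thymus (median -1.24). Its ligands Lta (9.59 ± 2.20 against 37.2 ± 5.19 CPM) and Ltb (193 ± 52.8 against 399.9 ± 71.3 CPM) and the non-canonical NF-kappaB genes Relb (60.04 ± 4.598 against 154 ± 25.8 CPM) and Nfkb2 (109.96 ± 6.53 against 265 ± 52.7 CPM) were higher in LN, while the receptor Ltbr (31.2 ± 4.75 against 34.5 ± 4.11 CPM) was not called.

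Over the wider chemokine and cytokine list, 23 of 46 genes were higher in LN and 7 in thymus (median -0.59). Of all tested genes 26.9% and 27.5% were so called. Ccl20 had 4.99 ± 1.51 against 0.113 ± 0.0574 CPM and Cxcr4, the receptor for Cxcl12, 297 ± 42.9 against 119.8 ± 37.3 CPM. Both were higher in thymus. Ccr6, the receptor for Ccl20, was lower there (3.60 ± 2.06 against 60.1 ± 10.3 CPM), and Cxcr5, the receptor for Cxcl13, was 4.67 ± 0.673 against 151 ± 35.0 CPM.

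Macrophage genes differed by subset. Sinus and medullary macrophages line the lymph channels of a node and carry Marco, Siglec1 and Cd209b. Marco stood at 0.889, 1.01, 1.63 and 0.590 CPM in thymus and 391, 331.6, 215 and 485 in LN, Cd209b at 0.150, 0.767, 0.464 and 0.237 CPM in thymus and 404, 381, 300.1 and 479.9 in LN, and Siglec1 had 10.8 ± 5.27 against 263 ± 63.9 CPM. Timd4 (13.2 ± 0.305 against 249 ± 45.4 CPM), a receptor for dying cells, and Lyz2 (261 ± 52.6 against 1526 ± 193 CPM) were lower in thymus. The complement genes C1qa (198 ± 42.4 against 175 ± 18.8 CPM), C1qb (169 ± 23.7 against 153 ± 12.7 CPM) and C1qc (185 ± 28.4 against 173 ± 21.3 CPM), made by most tissue macrophages, were not called (adjusted p = 0.591, 0.609 and 0.882). Vsig4 (0.634 ± 0.267 against 0.0187 ± 0.0122 CPM) and Cd163 (13.9 ± 6.37 against 4.02 ± 2.89 CPM) were higher in thymus, and the list as a whole gave 14 of 20 higher in LN and 2 in thymus (median -1.25). Dendritic cell genes gave 14 of 17 higher in LN and 1, Ccr9, in thymus (median -1.54). Xcr1 (11.1 ± 1.37 against 30.8 ± 7.32 CPM) and Clec9a (7.52 ± 1.03 against 28.3 ± 7.002 CPM) mark the cross-presenting subset and Siglech (14.4 ± 6.27 against 103 ± 53.2 CPM) plasmacytoid cells. Natural killer genes gave 11 of 15 higher in LN and 3 in thymus (median -1.38), led by Ncr1 (0.269 ± 0.0603 against 6.56 ± 1.15 CPM) and Eomes (2.05 ± 0.181 against 22.1 ± 5.67 CPM), whereas Klrb1c was not called (6.34 ± 1.06 against 7.23 ± 1.21 CPM). Granulocyte and mast cell genes mostly did not pass. Of 16, 4 were higher in LN and 2 in thymus (median -0.45), against 26.9% and 27.5% of all tested genes. The connective tissue mast cell protease Mcpt4 (2.51 ± 1.39 against 19.4 ± 3.82 CPM) was among those higher in LN.

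MHC class II genes were lower in thymus without any exception past the threshold. Of 14, 13 were higher in LN and 0 in thymus (median -1.43). H2-Aa had 765 ± 95.1 against 1995 ± 350.5 CPM and Cd74, the invariant chain, 2384, 1372, 2059.9 and 1399 CPM in thymus and 4933, 4731, 3231 and 5360.1 in LN. The transactivator Ciita stood at 21.4, 75.1, 37.997 and 57.0 CPM in thymus and 274, 289.6, 197 and 341.5 in LN. H2-Ob, whose protein dampens peptide loading in B cells, had the largest fold of the list (26.1 ± 4.03 against 476 ± 92.3 CPM, log2 fold -4.26), and Ctse was not called.

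Cell cycle genes were higher in thymus with 1 exception. All 43 genes on the list were called, 42 of them higher in thymus, with a median log2 fold of 2.49. Mki67, carried by cycling cells, stood at 886, 721, 469 and 746 CPM in thymus and 63.3, 116, 63.9 and 89.6 in LN. Top2a had 667 ± 113 against 77.1 ± 22.7 CPM, Rrm2 233 ± 21.2 against 30.4 ± 12.9 CPM and Pcna 295 ± 39.0 against 103 ± 12.2 CPM. Replication licensing factors rose by 1.32 (Mcm5, SE 0.16) and 1.03 (Mcm4, SE 0.13), and mitotic genes by 3.37 (Ube2c, SE 0.33) and 3.19 (Birc5, SE 0.31). The D-type cyclins split. Ccnd3, needed for the burst of division after beta selection, stood at 1725, 1140.2, 1116 and 999 CPM in thymus and 189, 194, 169.8 and 213 in LN, whereas Ccnd2, which mature B cells use, was lower in thymus (155 ± 16.3 against 253.3 ± 15.6 CPM) and was the member higher in LN.

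Notch signalling commits progenitors to the T lineage, yet its genes did not move as a block. The list had 7 of 24 genes higher in thymus and 10 in LN (median -0.10), against 27.5% and 26.9% of all tested genes. Notch1 stood at 298, 435, 249 and 317.1 CPM in thymus and 127, 137, 147 and 138 in LN. The thymic ligand Dll4 (18.8 ± 4.03 against 19.03 ± 0.705 CPM) and the target Hes1 (17.7 ± 3.02 against 16.8 ± 1.81 CPM) were not called (adjusted p = 0.601 and 0.998). The target Dtx1 (49.9 ± 14.3 against 107 ± 18.96 CPM) and Notch2, which marginal zone B cells need (71.8 ± 14.1 against 223 ± 19.3 CPM), were lower in thymus. Jag2 (71.2 ± 17.1 against 19.3 ± 2.94 CPM) and Hey1 (23.4 ± 5.11 against 5.94 ± 2.44 CPM) were higher.

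Transcription factors divided by lineage. Of 50, 17 were higher in thymus and 27 in LN (median -0.89), against 27.5% and 26.9% of all tested genes. Myb, which supports immature progenitors, stood at 789.6, 803.8, 803.9 and 879 CPM in thymus and 42.4, 38.4, 33.8 and 43.5 in LN and had a log2 fold of 4.31. Tcf7 (2618 ± 492 against 512 ± 71.3 CPM), Bcl11b (696 ± 153 against 142 ± 23.3 CPM), Sox4 (343.97 ± 50.1 against 44.9 ± 3.66 CPM), Ets2 (513 ± 40.1 against 61.05 ± 9.96 CPM) and Gata3 (85.9 ± 12.4 against 32.1 ± 8.79 CPM), which set up or hold T cell identity, were higher in thymus. B cell and myeloid factors were lower there, among them Mef2c (8.56 ± 1.07 against 197 ± 34.2 CPM), Pou2f2 (16.4 ± 3.72 against 191 ± 44.4 CPM) and Spi1 (29.1 ± 2.89 against 109 ± 20.6 CPM). Bach2, which keeps lymphocytes quiescent, was 35.5 ± 7.42 against 138 ± 23.6 CPM. The E protein gene Tcf3 (262.4 ± 25.7 against 218 ± 33.7 CPM) and Ets1 (1089 ± 192 against 885 ± 142 CPM) were not called. Genes induced by receptor signals did not agree in direction: Egr1 (135 ± 11.0 against 72.1 ± 12.9 CPM), Egr2 (30.3 ± 5.77 against 18.3 ± 3.21 CPM) and Nr4a1 (118 ± 18.1 against 46.8 ± 8.34 CPM) were higher in thymus and Egr3 (19.3 ± 2.45 against 98.3 ± 19.1 CPM) lower.

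Death and survival genes were called about as often as all tested genes (27.5% and 26.9%), with 8 of 25 higher in thymus and 7 in LN (median 0.10). 2 protectors went in opposite directions. Bcl2l1, whose long product Bcl-xL keeps double-positive thymocytes alive, stood at 297, 192, 214 and 189 CPM in thymus and 38.4, 43.7, 42.98 and 40.5 in LN. Bcl2, the protector of mature lymphocytes, stood at 72.6, 83.4, 81.0 and 74.5 CPM in thymus and 130.1, 132, 119.9 and 126 in LN. Bcl2l1 rose in thymus by 2.36 (SE 0.18) and Bcl2 fell by 0.78 (SE 0.074), with adjusted p of 1.48e-05 and 5.39e-05. The killer of negative selection, Bcl2l11 (Bim), differed slightly (84.0 ± 10.5 against 62.5 ± 5.52 CPM, log2 fold 0.35). The family as listed had 8 of 25 genes higher in thymus and 7 in LN (median 0.10).

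Genes of heterochromatin, among them Setdb1, the gene targeted in cell lines of the series, were more often higher in thymus. Of 22, 13 were higher there and 1 in LN (median 0.39), against 27.5% and 26.9% of all tested genes. Uhrf1, which copies DNA methylation at replication, had 305.7 ± 64.04 against 37.0 ± 12.96 CPM and Trim28 462 ± 21.01 against 208 ± 28.5 CPM. Setdb1, the histone H3 lysine 9 methyltransferase, stood at 94.9, 118, 103 and 134 CPM in thymus and 86.5, 85.0, 77.7 and 95.1 in LN. Its call was weak, with a log2 fold of 0.31 (SE 0.085, adjusted p = 0.0148), and the lowest thymus library lay inside the LN range. Without thymus replicate 4 or LN replicate 4, the libraries whose code begins with D804, the adjusted p was 0.0675 and 0.0771. Its partner Atf7ip (209 ± 39.2 against 222 ± 17.9 CPM) was not called. Tet2 was the member higher in LN (32.6 ± 5.60 against 56.2 ± 5.61 CPM). Interferon-stimulated genes were split evenly, with 5 of 25 higher in thymus and 5 in LN (median 0.072), against 27.5% and 26.9% of all tested genes. Oasl2 was higher in thymus (105 ± 12.7 against 32.5 ± 8.40 CPM), Mx1 lower (21.1 ± 6.59 against 53.9 ± 12.9 CPM), and Irf7 (107 ± 16.8 against 107 ± 32.6 CPM) was not called.

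**Figure D5:**
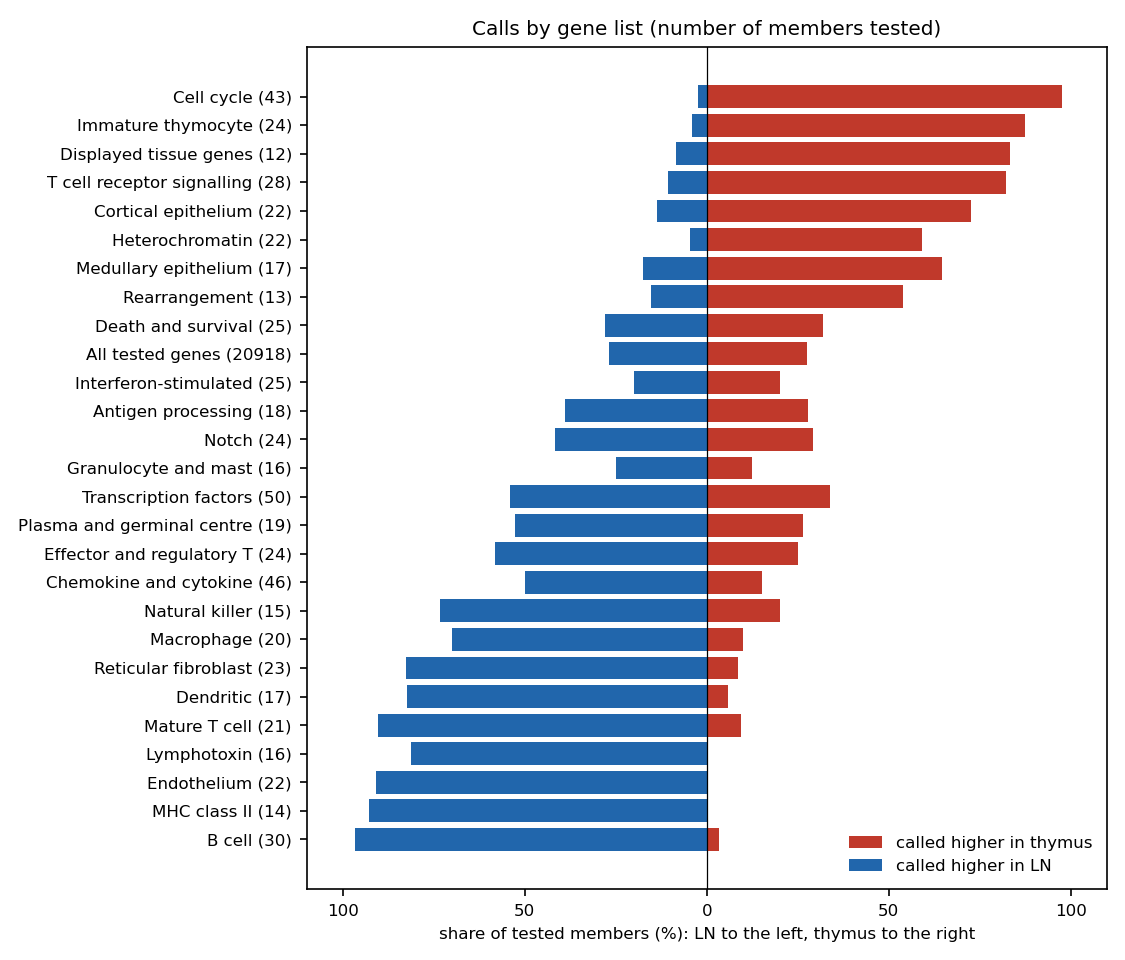
For each gene list, the share of its tested members called higher in thymus (red, to the right) and higher in LN (blue, to the left), in percent, with the number tested after its name. Cell cycle, immature thymocyte and receptor signalling lists lie almost wholly to the right and B cell, endothelial and MHC class II lists to the left, around all tested genes at 27.5% and 26.9%.

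Markers of neighbouring tissue varied widely between replicates. The 13 white fat genes summed to 1163, 5342, 5451 and 787 CPM in thymus and 1483, 7397, 31653 and 889.8 in LN, and 0 of them were called. Adipoq alone stood at 17.7, 74.3, 92.3 and 14.3 CPM in thymus and 18.8, 121, 598 and 5.31 in LN. Heart muscle genes were high in the same 2 thymus replicates as fat, at 28.2, 207, 273 and 10.9 CPM in thymus and 16.9, 16.5, 11.4 and 17.5 in LN, and 4 of 5 tested were called higher in thymus. Brown fat genes summed to 24.2, 204, 274 and 8.58 CPM in thymus and 5.37, 14.8, 70.6 and 1.03 in LN, with 2 of 7 called higher in thymus. Red cell genes summed to 894, 203, 279 and 87.2 CPM in thymus and 41.5, 23.6, 83.5 and 14.9 in LN, and 6 of 6 tested were called higher in thymus. Parathyroid hormone (Pth) stood at 23.7, 11.7, 0.405 and 26.2 CPM in thymus and at 0 in all 4 LN libraries, and its call was lost without thymus replicate 1 (adjusted p = 0.0664). Of 13 skeletal muscle genes 12 were tested, with 8 higher in thymus and 1 in LN. All 9 nerve genes were tested, with 2 and 2. Of 11 pancreas and gut genes 6 were tested, with 5 and 0. Of 13 gland genes 9 were tested, with 6 and 3. Of 6 thyroid and parathyroid genes 5 were tested, with 2 and 2. Of 8 liver and lung genes 7 were tested, with 4 and 1. Genes near 0 in LN entered the test only through their level in thymus, so the share of those called is no measure of these lists. The part of such tissue in the results on keratins, displayed genes and stroma was not tested. Without the 2 LN libraries rich in fat genes 4932 genes were higher in thymus and 4464 in LN, and without the 2 thymus libraries rich in fat and heart genes 5279 and 4997.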

How the data were processed

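Poly(A) RNA of 4 thymus and 4 LN samples was read with a stranded kit, per the labels' protocols. The authors deposited raw counts per Ensembl gene. Per the submitters' processing notes, Trim Galore, FastQC, STAR, HTSeq and build mm10 were used, while their versions, the annotation, the strand setting and the handling of reads that fit several genes are not given there. Overlapping and antisense genes are therefore uncertain. Groups came from the source names. Of 53379 gene IDs, 53274 matched GENCODE release M21, which gave symbols, types, lengths and mm10 positions.

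Counts were tested with edgeR 4.0.16 in R 4.3.3 (TMM, filterByExpr, robust quasi-likelihood fit with tissue and run as terms, 5 residual degrees of freedom), with Benjamini-Hochberg adjustment over 20918 genes. CPM used library totals, and TPM the exon length of each gene. Alternatives covered scaling, low-count filters, DESeq2 1.42.0, the run term, the samples in the fit, each library left out and a fold of 2. Library numbers run in sets of 12, which match the replicate numbers of thymus and LN. Deviations from the tissue mean correlated by 0.213 to 0.336 in the 4 same-numbered pairs and by -0.341 to 0.269 in the others. The ranges overlap: thymus replicate 2 correlated more with LN replicate 3 (0.269) than with LN replicate 2 (0.213). The numbers were therefore used as a possible pairing in 1 alternative fit only. Unless a setting is named, p-values come from the fit without pairing. No 2 libraries of a tissue were copies. On simulated counts of 20505 genes the test recovered 4%, 54%, 86% and 94% of genes changed 1.5, 2, 4 and 8-fold, and 7 of 126 calls were false. There 50 genes were changed at each fold, from those with a mean of at least 50 counts, and all others were equal. In the data 54.4% of tested genes were called, so these rates cannot be carried over to the calls. Counting intervals cover counting error only.

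The groups, gene lists and named genes were chosen with earlier results of these data known. Named genes were marked members of the lists, the called genes of largest fold or CPM difference, and the most abundant called members of each list. H2-Q2, Six2, Cbr2, Lyz1 and the Hox and Skint genes were named after their values were seen. List genes not in the table were Faim3, Spt1, Tasor and Ahsp. A second deposited table of scaled counts was not used. Some genes are not reported here.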

Additional observations from a re-analysis of the deposited data

Results flagged for a closer look

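A gap of 1 library to the other 3 was divided by the range of its group. It was compared with Dixon's 95% critical value in 457 groups of 4 values. These were the named genes in each tissue and the sums of 4 marker lists and of the receptor segments. The library totals, length slopes and shares of mitochondrial counts were also among them. 35 groups (7.66%) were past it, where chance marks about 1 in 20 groups of normal values. That rate does not apply to 3 of them (Cyp2a5, Foxn1 and Hoxc11 in LN), where 3 libraries are at 0 and the gap equals the range. No test of a difference between strata applies here, and the values below are CPM. LN replicate 1 stood above the other 3 LN libraries for Dntt (11.4, against 3.48 to 4.75 in the others) and Siglech (183, against 70.7 to 84.9 in the others). LN replicate 2 stood below the other 3 LN libraries for Igkc (1255, against 1636 to 1702 in the others) and Oasl2 (19.96, against 36.0 to 37.9 in the others). LN replicate 2 stood above the other 3 LN libraries for Cyp2a5 (0.0290, against all at 0 in the others). LN replicate 3 stood below the other 3 LN libraries for C1qa (147, against 181 to 187 in the others), C1qb (134, against 157 to 160.4 in the others), Ccr7 (178, against 246 to 252 in the others), H2-D1 (2006, against 2411 to 2469 in the others), Hes1 (14.1, against 17.4 to 17.96 in the others), Poll (18.1, against 21.7 to 21.99 in the others), Zap70 (84.8, against 111 to 115 in the others) and the heart muscle sum (11.4, against 16.5 to 17.5 in the others). LN replicate 3 stood above the other 3 LN libraries for Vsig4 (0.0369, against 0.0117 to 0.0145 in the others). LN replicate 4 stood above the other 3 LN libraries for Ccl20 (0.198, against 0.0737 to 0.0940 in the others), Foxn1 (0.0233, against all at 0 in the others) and Hoxc11 (0.0117, against all at 0 in the others). Thymus replicate 1 stood below the other 3 thymus libraries for Avil (9.15, against 12.5 to 13.1 in the others), Cxcr5 (3.67, against 4.96 to 5.06 in the others), Irf4 (19.8, against 23.8 to 24.4 in the others), Oasl2 (86.3, against 110.01 to 113 in the others) and Rora (12.1, against 12.8 to 12.9 in the others). Thymus replicate 1 stood above the other 3 thymus libraries for Glycam1 (0.356, against 0.130 to 0.136 in the others), Pou2f2 (21.9, against 14.2 to 14.9 in the others) and Ptcra (51.7, against 29.9 to 32.7 in the others). Thymus replicate 2 stood above the other 3 thymus libraries for Ctla4 (12.9, against 10.1 to 10.6 in the others), Foxn1 (48.98, against 28.7 to 30.7 in the others) and Ifngr1 (399, against 330.8 to 337.6 in the others). Thymus replicate 3 stood below the other 3 thymus libraries for Prf1 (6.34, against 6.99 to 7.10 in the others). Thymus replicate 3 stood above the other 3 thymus libraries for Clu (119.5, against 82.1 to 86.0 in the others), Hoxb7 (0.240, against 0.0612 to 0.0821 in the others) and Hoxc11 (2.17, against 1.29 to 1.39 in the others). Thymus replicate 4 stood below the other 3 thymus libraries for Eomes (1.78, against 2.11 to 2.16 in the others). Thymus replicate 4 stood above the other 3 thymus libraries for Aire (67.4, against 58.3 to 59.4 in the others) and Myb (879, against 789.6 to 803.9 in the others). LN replicate 3 is the library with the highest sum of white fat genes, and the part of fat in its values was not tested.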

How the results depend on the processing

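edgeR called 11385 genes, 5752 higher in thymus and 5633 in LN. With a fold of at least 2 in the test 4788 were called, 2507 and 2281, as its construction implies. Every other alternative kept these 3 counts within 1.5 times. Leaving out each library in turn gave 9722 to 11957 in all, 4796 to 6645 higher in thymus and 4567 to 5517 in LN. Of the other settings the lowest and highest totals were 8862 with a stricter low-count filter and 13696 with all 48 tissue libraries, and DESeq2 called 13217. The fit with a replicate block, which pairs libraries by number and leaves 3 residual degrees of freedom, called 11978, of which 11186 were called in the same direction without the block and 0 in the opposite one. It changed no call of a named gene other than that of Cd24a. Scaling alternatives moved the median fold of all genes by at most 0.0461 on the log2 scale.

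Of 212 named genes with a test 189 were called. Over all settings 4861 values were recomputed, of which 107 lost and 8 gained the call and 0 reversed, with a sign change of a gene never called counted as no change. Requiring a fold of at least 2 accounted for 43 of the losses. With all 48 libraries in the fit the adjusted p was 0.158 for Egr1, 0.284 for Egr2, 0.0545 for Gata3, 0.0768 for Trac and 0.0501 for Cd83, and the cause was not tested. Without the run term it was 0.0686 for Igha. 4 further alternatives were chosen after seeing the data. Without the 2 thymus libraries of negative length slope 8 named calls were lost, among them Psmb5, Psmb7 and Gimap9, and with that slope as a covariate 1 (5963 genes higher in thymus and 6077 in LN). Without the 2 LN libraries rich in fat 11 were lost, among them Psmb5, Psmb6, Il7, Trac and Gimap9, and without the 2 thymus libraries rich in fat and heart genes 7, among them Cd163. Settings without 2 libraries leave 6. Depth limits genes near 0 in 1 organ, whose folds are bounds or rest on few counts.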

Other observations

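5 gene families, chosen after their values were seen, are described here by their sums over all genes of the family in the table. Their counts of calls stand against 27.5% of all tested genes higher in thymus and 26.9% higher in LN. Hox genes, which hold the body position of mesenchyme and epithelium, were higher in LN. Of 30 tested, 23 were called higher in LN and 3 in thymus, and the 39 genes summed to 36.3, 36.5, 36.5 and 26.3 CPM in thymus and 129.8, 129.6, 172 and 122 in LN. Every LN library was thus above every thymus library. Hoxc6 had 0.482 ± 0.138 against 11.1 ± 2.36 CPM, Hoxb7 0.114 ± 0.0840 against 5.75 ± 0.242 CPM and Hoxd9 0.521 ± 0.166 against 12.9 ± 1.10 CPM. The 3 higher in thymus were Hoxa2 (1.69 ± 0.382 against 0.918 ± 0.119 CPM, adjusted p = 0.0182), Hoxb13 (0.267 ± 0.0389 against 0 ± 0 CPM) and Hoxc11 (1.56 ± 0.412 against 0.00292 ± 0.00584 CPM), at low levels in both organs, and Hoxa3, which acts in the pharyngeal pouch, was not called (6.30 ± 0.756 against 7.08 ± 1.30 CPM). The Hoxa2 call was lost with all 48 tissue libraries (0.185) and without the 2 thymus libraries of negative length slope (0.0896), the 2 LN libraries rich in fat genes (0.222) or the 2 thymus libraries rich in fat and heart genes (0.138).

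Skint genes, named for their role in selecting and keeping intraepithelial T cells of the skin, were higher in thymus than in LN. All 9 tested of 11 were called higher in thymus, with sums of 58.9, 61.6, 69.7 and 76.3 CPM in thymus and 2.45, 3.06, 1.61 and 2.53 in LN. Members near 0 in LN entered the test only through their level in thymus, so the share called is no measure of the family. Skint1 had 4.17 ± 0.934 against 0.00908 ± 0.0117 CPM, Skint10 17.5 ± 2.68 against 0.107 ± 0.0596 CPM and Skint3 4.84 ± 1.31 against 2.25 ± 0.534 CPM. The Skint3 call was lost without the 2 thymus libraries rich in fat and heart genes (adjusted p = 0.0783). Keratins summed to 1500.5, 1353, 1515 and 1239.9 CPM in thymus and 31.3, 119, 379.7 and 15.3 in LN, and 37 of 41 tested were higher in thymus and 1 in LN. Any keratin near 0 in LN likewise entered the test only through its level in thymus. The LN sums were highest in replicates 2 and 3, which also held the most white fat RNA of the LN libraries, and the part of attached tissue in them was not tested.

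Replication-dependent histone genes, whose main transcripts carry no poly(A) tail, were still read in these poly(A) libraries. Of 52 tested, 41 were higher in thymus and 0 in LN, with sums of 242, 148, 179 and 152 CPM in thymus and 73.3, 79.6, 103 and 68.5 in LN. Genes of cytosolic ribosomal proteins, which are short, mostly did not pass the test. Of 75, 2 were higher in thymus and 14 in LN, against 27.5% and 26.9% of all tested genes. Their sums were 51771, 30427, 45299.6 and 33993 CPM in thymus and 54272, 50401, 41932 and 48998 in LN, lower in thymus replicates 2 and 4 than in the other 6 libraries, and those 2 libraries had the highest length slopes.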
